A study of Populus ussuriensis with 18 samples.

Results

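MYB59 is the poplar gene Potri.010G064000 (Potri.010G064000.v3.0 in the files), named after the Arabidopsis transcription factor that it matched best in the study's annotation, and its ID places it on chromosome 10. It was 1 of 30485 genes measured by RNA-seq in the roots of Populus ussuriensis under low nitrogen (LN), and it was singled out because its level had fallen against the control at all 5 LN time points. The comparisons with the control are therefore given as a description with no test, and tests are kept for the differences between LN time points. The plantlets were clonally propagated wild type, rooted in vitro for 3 weeks on Woody Plant Medium with 10 mM nitrate and 5 mM ammonium. Roots were sampled on that medium at 0 h (control), and LN roots at 5 times (12, 24 and 48 h, then 96 and 336 h). For LN, the plantlets were moved to modified Woody Plant Medium with 0.05 mM nitrate and 0.025 mM ammonium. The plantlets had been maintained on agar medium, while the paper's account of growth describes liquid media after transfer. Each of the 6 groups had 3 biological replicates, which makes 18 libraries. The labels give each time point a batch of its own, so batch and time point cannot be told apart. No roots kept on normal nitrogen beyond 0 h were analysed here, so the time since transfer, the change of medium and the supply of nitrogen also cannot be told apart.

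MYB transcription factors bind DNA through imperfect repeats of a helix-turn-helix fold, and the family is among the largest of plant regulators. In Arabidopsis, MYB59 is known as a regulator of root growth and of cell cycle progression, and its closest relative there is MYB48. Arabidopsis MYB59 also promotes the transcription of NPF7.3 (NRT1.5), a root transporter that loads nitrate and potassium into the xylem for transport to the shoot. Arabidopsis MYB59 transcripts are alternatively spliced, and values per gene as used here do not separate such forms. None of these roles was measured in these roots.

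The values are FPKM, the fragments counted on a gene per kilobase of its length and per unit of sequencing depth, and the libraries held 15945070 to 18193649 fragments (median 17401554). Replicate 3 of 48 h stood apart from the other libraries of its group. Its correlation with replicates 1 and 2 over all genes, on log2(FPKM + 1), was 0.939 for each, while all other pairs of replicates lay between 0.993 and 0.996. It was closer to the mean of the 24 h libraries (r = 0.988) than replicates 1 and 2 were (0.950 and 0.951). The same held for the mean of the 96 h libraries (0.967, against 0.955 for replicates 1 and 2 each). Which of the 48 h libraries is typical of that time point was not tested. The main results that rest on the 48 h group are therefore also given without it. A set of 5 root marker genes fixed for this purpose (SOMBRERO and a pair each of MYB36 and AGL12) reached at least 1 FPKM in all 18 libraries. Their sums were 19.5 to 24.5 FPKM in the control, 12.1 to 12.4 at 12 h and 13.9 to 15.8 at 24 h. They were 13.1 to 18.3 FPKM at 48 h, 23.7 to 25.2 at 96 h and 20.2 to 26.8 at 336 h. The markers moved apart. At 336 h SOMBRERO (Potri.010G176600) was called higher, from 1.66 to 7.37 FPKM, and AGL12 (Potri.019G076800) lower, from 6.31 to 1.46 FPKM. Of all genes, 8.28% were called higher and 4.07% lower there. MYB36 (Potri.018G095900) was called lower at 12 and 48 h with all libraries kept (all genes 2.62% and 2.14%), from 4.67 to 1.44 and 1.45 FPKM. It stood at 3.37 FPKM at 336 h, while the other MYB36 (Potri.009G007100) went from 5.38 to 10.4 FPKM, neither of them called there. The part of these markers in the results for MYB59 was not tested. In these root samples, fewer cells of a type and less RNA per cell cannot be told apart.

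In the control, MYB59 stood at 48.2, 45.7 and 46.6 FPKM in replicates 1, 2 and 3, which rested on 973, 930 and 962 fragments. This was a high level, above that of 92.6% of all genes by the mean. At 12 h it stood at 5.03, 5.26 and 5.22 FPKM, and at 24 h at 5.00, 5.68 and 4.61 FPKM. Both early groups were narrow and close to each other, far below the control. At 48 h the values were 2.42 and 2.33 FPKM in replicates 1 and 2 and 7.81 FPKM in replicate 3. Replicates 1 and 2 were the lowest LN libraries and replicate 3 was the highest. At 96 h it stood at 6.76, 6.55 and 5.49 FPKM. At 336 h it stood at 2.57, 4.01 and 3.34 FPKM, and these libraries overlapped with those of 48 h and with no library of the other groups. The lowest control library was 5.85-fold above the highest of the 15 LN libraries.

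**Figure D1:**
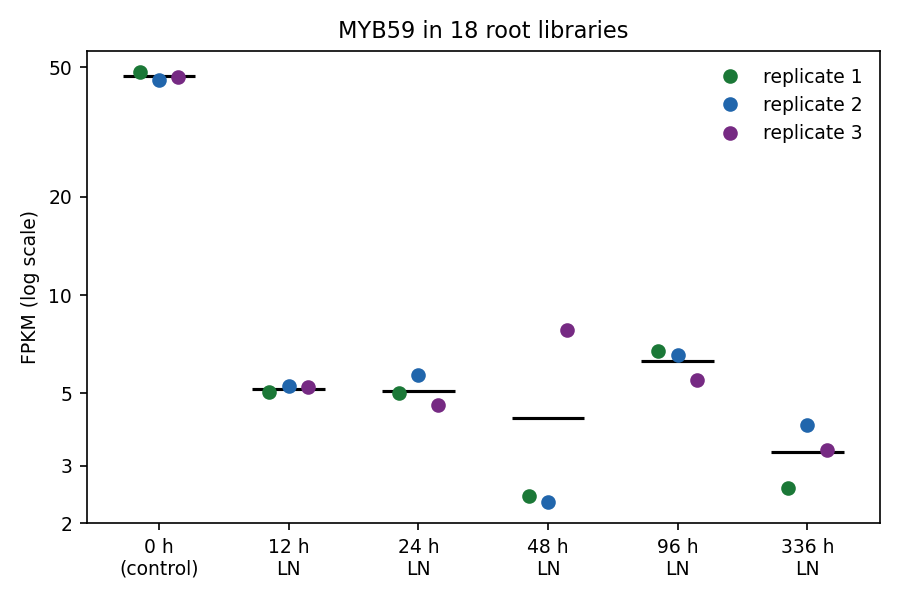
MYB59 in FPKM (log axis) in each of the 18 root libraries, by hours after transfer to LN medium. Points are replicates and the black lines are group means. The 3 control libraries sit between 45.7 and 48.2 FPKM and the 15 LN libraries between 2.33 and 7.81 FPKM, with replicate 3 of 48 h apart from replicates 1 and 2.

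The mean fell from 46.8 ± 1.26 FPKM (SD, n = 3) in the control to 5.17 ± 0.124 FPKM at 12 h, the first time point analysed here, which was 11% of the control. It was 5.10 ± 0.539 FPKM (10.9%) at 24 h, 4.19 ± 3.14 FPKM (8.95%) at 48 h, 6.27 ± 0.680 FPKM (13.4%) at 96 h and 3.30 ± 0.721 FPKM (7.06%) at 336 h. At no LN time point did the mean exceed 13.4% of the control, and over the 15 LN libraries the mean was 4.81 FPKM, or 10.3% of the control. Without replicate 3, the 48 h mean was 2.38 FPKM (n = 2), or 5.07% of the control. By rank, MYB59 moved from above 92.6% of genes to above between 38.1% and 50.3% of genes in the LN groups (35.6% at 48 h without replicate 3). The gene was thus still detected in every LN library, with 50 to 154 fragments in each.

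In order of the group means, the control was followed by 96, 12, 24, 48 and 336 h. Without replicate 3 of 48 h, 48 h came last. With all libraries, the neighbours 12 and 24 h, 24 and 48 h, and 48 and 336 h did not differ beyond their spread, while without that replicate 24 and 48 h did (−0.85, adjusted p = 0.00029 in limma). The share of all genes called in that fit is not given here.

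On the log2(FPKM + 1) scale, the difference from the control was −2.95 (SE 0.0566) at 12 h, −2.97 (SE 0.0741) at 24 h and −3.36 (SE 0.378) at 48 h. It was −2.72 (SE 0.0773) at 96 h and −3.49 (SE 0.118) at 336 h. Leaving out any 1 library kept the difference at 48 h between −3.82 and −3.12, and the former is the value without replicate 3. The median of all genes shifted by 0.04 to 0.21 in these comparisons, so the fall of MYB59 was slightly larger relative to the other genes. The libraries of MYB59 did not overlap between control and LN at any of the 5 time points. In the same comparisons, 2.62%, 1.41%, 2.14%, 1.84% and 4.07% of all genes tested were called lower at 12, 24, 48, 96 and 336 h, where a call needs an adjusted p under 0.05 and a log2 fold change of 1 or more in size. MYB59 was chosen for its fall, so nothing is read from its place among them. On log2(FPKM + 1), a gene of low level in the control also cannot fall as far as MYB59, even to 0 FPKM. Such genes are in the numbers tested but could not have fallen more. As a description, the genes that fell more than MYB59 were 22 of 22977 at 12 h, then 9 of 22792 (24 h), 8 of 22779 (48 h), 28 of 23363 (96 h) and 51 of 23320 (336 h), and at 48 h without replicate 3 they were 8 of 22191.

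MYB59 was chosen by its comparisons with the control and not by those among LN libraries, so the 10 pairs of LN time points were tested with limma and Benjamini-Hochberg adjustment over all genes (a call at an adjusted p under 0.05, with no limit on the fold). The level at 336 h was lower than at 96, 12 and 24 h. Against 96 h the difference was −0.76 on the log2(FPKM + 1) scale (SE 0.129, 95% interval −1.07 to −0.46, adjusted p = 0.0018 in limma), and the 3 libraries of 336 h all lay below the 3 of 96 h. Against 12 h it was −0.53 (SE 0.117, −0.80 to −0.26, adjusted p = 0.0048 in limma), and against 24 h it was −0.51 (SE 0.127, −0.81 to −0.22, adjusted p = 0.01 in limma), again with no overlap of libraries. In 1 limma fit of all 18 libraries, the calls against 12 h and 24 h were lost (adjusted p = 0.103 and 0.128). These are small steps beside the fall from the control. In the same comparisons 54.3%, 60.4% and 54.9% of all genes were called in either direction, so a call was common among genes.

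The level at 96 h was higher than at 12 h by 0.23 (SE 0.0756, 95% interval 0.05 to 0.41, adjusted p = 0.029 in limma), in a comparison that called 63.9% of all genes. This call was lost (adjusted p = 0.057 to 0.095 in limma) without replicate 1, 2 or 3 of 12 h or without replicate 1 or 2 of 96 h, and in the fit of all 18 libraries (adjusted p = 0.490). The difference between 96 and 24 h was 0.25 (SE 0.0914, 0.04 to 0.47, adjusted p = 0.052 in limma) where 52.5% of all genes were called, and missed the threshold, which it passed without replicate 2 of 24 h (0.32, adjusted p = 0.03 in limma) or replicate 3 of 96 h (0.33, adjusted p = 0.02 in limma). Between 24 and 12 h the difference was −0.02 (SE 0.0721, −0.19 to 0.15, adjusted p = 0.839 in limma), a narrow interval around 0 in a comparison that called 42.8% of all genes.

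With its 3 libraries, 48 h differed by −0.41 from 12 h (SE 0.380, 95% interval −1.33 to 0.52) and by −0.39 from 24 h (SE 0.386, −1.33 to 0.55). The 96 h libraries were 0.64 above those of 48 h (SE 0.388, −0.31 to 1.59), and those of 336 h were 0.12 lower (−0.12, SE 0.394, −1.08 to 0.83). None of these 4 comparisons passed the threshold (adjusted p = 0.463, 0.559, 0.313 and 0.835 in limma), where 14.6%, 1.58%, 11.7% and 19.1% of all genes were called, and their intervals are wide. Without replicate 3, 48 h was below 12 h (−0.87, adjusted p = 4.3e-05), below 24 h (−0.85, adjusted p = 0.00029) and below 96 h (96 h minus 48 h 1.1, adjusted p = 0.00012), all in limma with 2 libraries at 48 h. The difference between 336 and 48 h then changed its sign to 0.34 (adjusted p = 0.074 in limma). Whether MYB59 had a low point at 48 h thus depended on 1 library. That library also moved in many other genes, 2828 and 2833 of which lay at least 1 log2 unit away from replicates 1 and 2.

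The number of fragments sets how finely the LN levels can be read. Replicates 1 and 2 of 48 h had 50 fragments each (exact Poisson 95% interval 37.1 to 65.9), and replicate 3 had 154 (131 to 180.3), so the spread within 48 h was larger than counting error. The 3 libraries of 12 h had 98, 104 and 110 fragments, with intervals from 79.6 to 133 that overlap throughout. At 336 h the counts were 54, 78 and 69, whose intervals (40.6 to 97.3 in all) also overlap. These intervals cover counting error only and leave out differences between biological replicates. They also take fragments as independent, which PCR copies of a fragment are not.

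**Figure D2:**
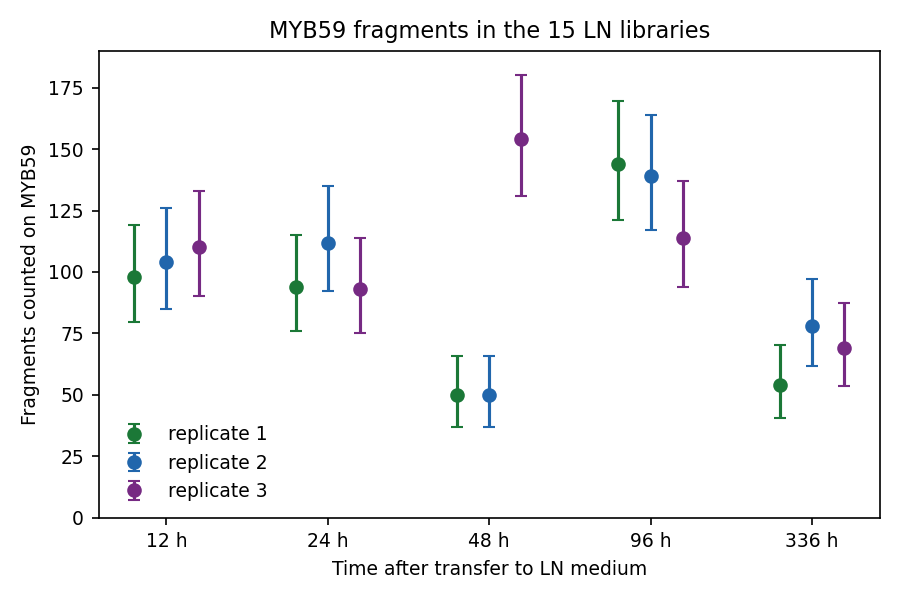
Fragments counted on MYB59 in each of the 15 LN libraries, with exact Poisson 95% intervals (counting error only), by hours after transfer. The counts run from 50 in replicates 1 and 2 of 48 h to 154 in replicate 3 of 48 h, whose interval of 131 to 180.3 does not meet theirs.

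The gene annotated as MYB48 (Potri.001G235500), the nearest named relative in the study's list of differentially expressed factors, did not share this course. Its level was 84.1, 64.2 and 74.6 FPKM in the control and 30.2, 34.3 and 33.7 FPKM at 12 h, with no overlap. The MYB48-annotated gene was called lower at 12 h (log2 fold change −1.15, SE 0.104, adjusted p = 3.8e-05 in limma), among 2.62% of all genes. The study listed it on these same samples, so nothing is read from this call or its adjusted p. At 24, 48, 96 and 336 h its means were 61.5, 64.8, 105 and 96.1 FPKM, and the log2 fold changes of −0.26, −0.20, 0.50 and 0.37 did not meet the criteria for a call (absolute change under 1). Without replicate 3 of 48 h, the value at 48 h was −0.34. The ratio of this gene to MYB59 in FPKM, taken within each library, was 1.41 to 1.75 in the control, 6.00 to 6.51 at 12 h, 11.3 to 13.5 at 24 h, 10.0 to 26.1 at 48 h, 14.9 to 18.8 at 96 h and 24.9 to 38.0 at 336 h. Its highest control ratio lay below the lowest LN ratio. The balance per length between the 2 genes thus moved towards the MYB48-annotated gene. This ratio holds the fall of MYB59 by which that gene was chosen, and it is a description.

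The 3 genes annotated as NPF7.3, the transporter whose Arabidopsis counterpart is a MYB59 target, were all called lower at 12 h, and 2 of the 3 were at 24, 48 and 96 h each, where 2.62%, 1.41%, 2.14% and 1.84% of all genes were called lower at these 4 time points. At 48 h, NPF7.3A and NPF7.3B were also called lower without replicate 3. The study lists all 3 as differentially expressed on these same samples. Nothing is therefore read from their calls or adjusted p against the control. NPF7.3A (Potri.001G145200) went from a mean of 136 FPKM in the control to 25.0 at 12 h, NPF7.3B (Potri.003G088800) from 46.4 to 7.90, and NPF7.3C (Potri.014G179400) from 18.8 to 6.42, which were log2 changes of −2.40, −2.41 and −1.42 (adjusted p = 5.2e-08, 3.8e-08 and 1e-06 in limma). At 336 h the same genes stood at 81.0, 36.5 and 29.0 FPKM (log2 fold changes −0.74, −0.34 and 0.60, none past the fold limit), while MYB59 was at its lowest group mean (with all libraries kept). At 48 h, NPF7.3C ran opposite to MYB59 library by library, with 39.2 and 40.9 FPKM in replicates 1 and 2 and 9.17 FPKM in replicate 3, and without replicate 3 it was called higher there (log2 fold change 1.05, adjusted p = 2.8e-05 in limma). Over the 15 LN libraries its correlation with MYB59 on log2(FPKM + 1) was −0.87, and those of NPF7.3A and NPF7.3B were −0.15 and −0.30. Over the 12 LN libraries left without 48 h, these were −0.82, −0.24 and −0.63. These coefficients share libraries and time points, so they are descriptions.

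**Figure D3:**
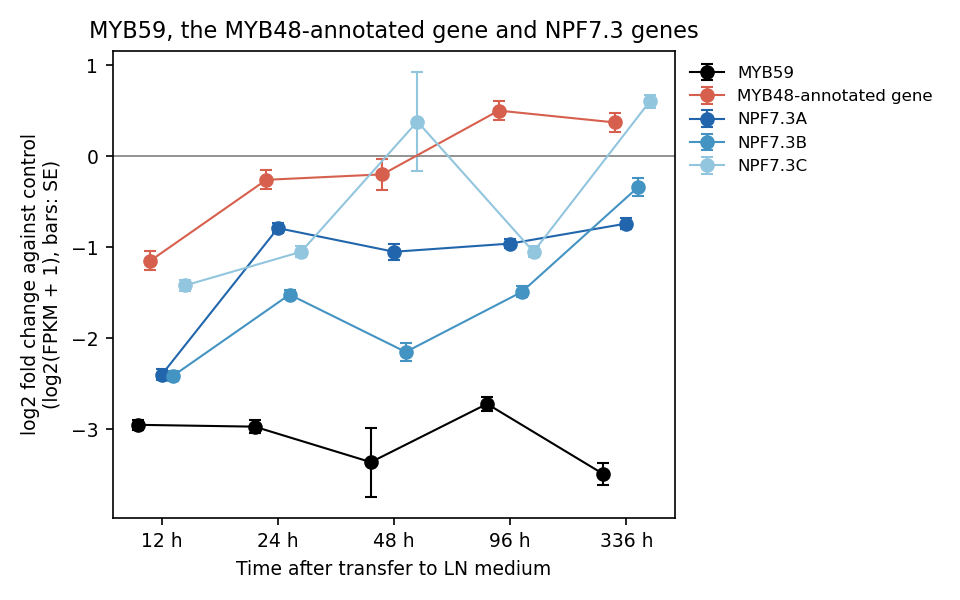
Log2 fold change against the control, on log2(FPKM + 1), of MYB59, the MYB48-annotated gene and the NPF7.3 genes at each LN time point, with bars for the SE (3 libraries against 3). MYB59 stays between −2.72 and −3.49, while NPF7.3A, for example, goes from −2.40 at 12 h to −0.74 at 336 h.

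A pair of ion channels came from the study's lists of differentially expressed genes. The potassium channel AKT1 (Potri.018G073300) was below 1 FPKM on average in each group (0.272 to 0.792 FPKM) and was not tested. TPC1 (Potri.013G131100), a vacuolar calcium-permeable channel, was called lower at 336 h alone, from 34.8 to 5.73 FPKM (log2 fold change −2.42, SE 0.0887, adjusted p = 3.2e-07 in limma). At 336 h, 4.07% of all genes were called lower. Since TPC1 was listed on these same samples, nothing is read from its call or adjusted p. At 12 to 96 h its log2 fold changes lay between −0.76 and −0.17.

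Next, MYB59 was set beside the other 96 genes that the study lists as MYB or related factors, trihelix factors included. The study listed them as differentially expressed on these same samples. Their direction is thus no independent evidence, and nothing is read from their shares called beside those of all genes. More of them rose than fell. At 12 h, 10 of the 70 that could be tested were called lower and 21 higher, against 2.62% lower and 6.21% higher of all genes. The counts were 5 lower and 14 higher of 65 at 24 h (all genes 1.41% and 4.29%), 10 and 10 of 61 at 48 h (2.14% and 2.84%), 3 and 27 of 72 at 96 h (1.84% and 8.18%), and 4 and 27 of 72 at 336 h (4.07% and 8.28%). Their median log2 fold change was 0.60, 0.33, 0.24, 0.66 and 0.71 at the 5 time points, beside 0.15, 0.08, 0.04, 0.13 and 0.21 over all genes. Leaving out 1 library lowered several of these counts. Without replicate 3 of 12 h, 13 were higher at 12 h, and without any 1 of the 24 h libraries, 9 were higher at 24 h. At 48 h, 6 were lower without replicate 1 or 3 of the control, and 4 were higher without any 1 control library or 3 without replicate 1 or 2 of 48 h. Without replicate 3 of 48 h, the counts at 48 h were 13 lower and 15 higher. At 96 h, 17 were higher without replicate 3 of 96 h. At 336 h, 16 were higher without replicate 2 of 336 h, and 2 were lower without replicate 2 or 3 of the control.

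Among the 58 of these genes tested at all 5 time points, MYB59 included, its mean log2 fold change of −3.10 on log2(FPKM + 1) was the second lowest (also without replicate 3 of 48 h, at −3.19 among 55 genes). PHL5A (Potri.016G048000), of the PHR1-like family whose Arabidopsis relatives act in phosphate signalling, was lower still at −3.92 (from −2.77 at 12 h to −4.70 at 96 h). Next came PHL5B (Potri.016G047900) at −2.59, MYB51A (Potri.008G089200), named after an Arabidopsis regulator of indole glucosinolates, at −2.17, CPC (Potri.004G015100), named after a promoter of root hair fate in Arabidopsis, at −1.05, and MYB39 (Potri.005G074500) at −1.0. PHL5A, PHL5B and MYB51A were the other 3 genes of the list called lower at all 5 time points, as were 0.450% of the 22203 genes tested at all 5. MYB51A was a low gene at 4.69, 3.53 and 4.32 FPKM in the control and was listed at 0 in the 3 libraries of 336 h, so its fitted values depend on the pseudocount. From a control mean of 4.18 FPKM it went to 0.125, 0.228, 0.379, 0.0600 and 0 FPKM at the 5 time points. In proportion this was a larger fall than that of MYB59 at all but 48 h. The rank of MYB59 is thus given for log2(FPKM + 1) only, and the order under another pseudocount was not examined. PHL5A and PHL5B have neighbouring IDs and the same annotation, and a sharing of reads between such copies was not tested. PHL5B had means of 14.1, 19.2, 17.1, 6.15 and 1.97 FPKM at 12, 24, 48, 96 and 336 h, where MYB59 had 5.17, 5.10, 4.19, 6.27 and 3.30 FPKM.

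At the other end of the list, MYB108 (Potri.008G101400) had a mean log2 fold change of 2.09. A pair of genes annotated as MYB44 (Potri.014G035100 and Potri.002G128900), after an Arabidopsis factor of abscisic acid responses, followed at 1.93 and 1.90. The gene annotated as At1g14600 (Potri.010G099600) stood at 1.75 and MYB12 (Potri.003G144200), named after an Arabidopsis activator of flavonol synthesis, at 1.73. MYB108, MYB12 and the At1g14600-annotated gene were called higher at all 5 time points, as were 0.937% of the genes tested at all 5, and the MYB44 pair at 3 each.

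**Figure D4:**
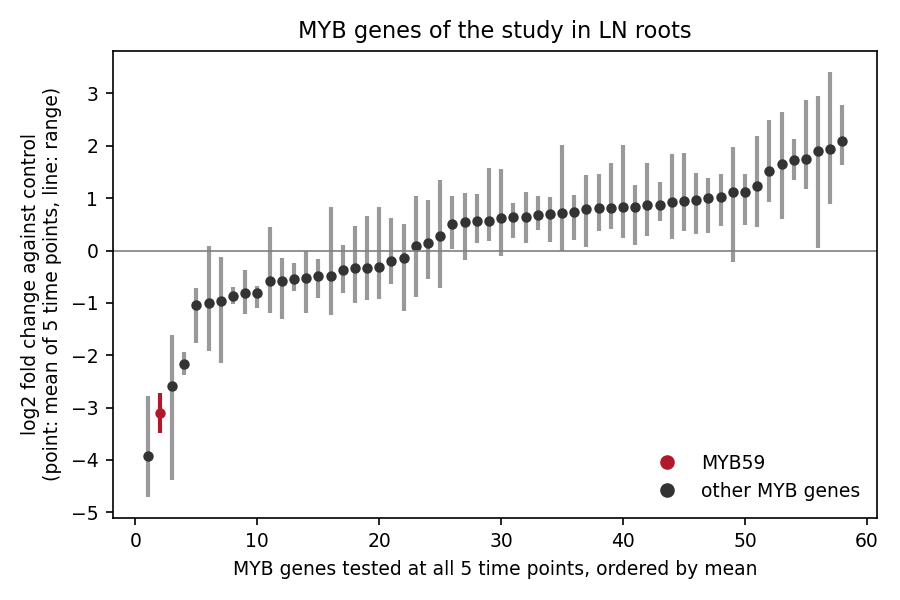
Log2 fold change against the control of the 58 MYB and related genes tested at all 5 LN time points, ordered by their mean (points), with the range over the 5 time points (lines). MYB59, in red, has a mean of −3.10 and is second to PHL5A at −3.92, while MYB108 has the highest mean at 2.09.

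The study also lists lowered transcription factors, and the other 9 of these were chosen for their fall on these samples, as MYB59 was. Of these, 8 could be tested, and 8, 6, 7, 6 and 8 were called lower at 12, 24, 48, 96 and 336 h (all genes 2.62%, 1.41%, 2.14%, 1.84% and 4.07%), from which nothing is read. At 48 h the count was 1, 2 and 1 without control replicates 1, 2 and 3, and 8 without replicate 3 of 48 h. The choice rested on fold changes of LN libraries against the control, so the order of these factors among LN libraries is not free of it. That order is given as a description. Over the 15 LN libraries, the correlation with MYB59 was 0.79 for SBP6 (Potri.010G154300), a squamosa promoter-binding-like factor, 0.78 for bZIP1 (Potri.002G115900), 0.74 for ORG2 (Potri.016G037300), and 0.67 for ILR3 (Potri.011G030900). ORG2 and ILR3 are named after Arabidopsis bHLH factors of iron homeostasis. It was 0.42 for PHL5A, 0.37 for MYB51A, 0.36 for RAP2.3 (Potri.014G126100), an ethylene response factor, and 0.32 for PHL5B. SBP6, for instance, stood at 3.30 and 3.09 FPKM in replicates 1 and 2 of 48 h and at 7.08 in replicate 3, which is the split seen for MYB59. Over the 12 LN libraries without 48 h, the order was another one. There r was 0.89 for RAP2.3, 0.85 for bZIP1, 0.66 for ORG2, 0.61 for SBP6, 0.56 for PHL5B, 0.39 for MYB51A, 0.24 for ILR3 and 0.19 for PHL5A. Which of these factors ran closest to MYB59 under LN thus depended on the 48 h libraries.

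Which genes followed MYB59 most closely was asked over 24472 other genes that reached 1 FPKM in 3 or more libraries, by Pearson's r of log2(FPKM + 1). Over all 18 libraries, 82 genes reached an r of at least 0.9 and 88 an r of at most −0.9. Of the sum of squares of MYB59 over these libraries, 90.0% lay between the control and the LN libraries, so this r mainly finds genes with a step between control and LN. Over the 15 LN libraries, 46 genes reached at least 0.9 and 38 at most −0.9, and here 47.9% of the sum of squares lay within the 48 h group, so that r leans on the split among its replicates. The 10 most similar genes over 18 and over 15 libraries shared no gene. Since libraries of a group share their time point and batch, these values describe likeness and are not tested.

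The closest gene over 18 libraries was Potri.011G049000 (r = 0.981). It stood at 188, 191 and 185 FPKM in the control, and its LN libraries lay between 52.1 and 99.4 FPKM with the highest LN group mean at 96 h and the lowest at 336 h, as for MYB59. Like MYB59, it was lowest in replicates 1 and 2 of 48 h (52.1 and 53.8 FPKM) and highest among the LN libraries in replicate 3 (99.4 FPKM). Its r over the 15 LN libraries was 0.931, and the other gene that reached 0.9 both ways was Potri.017G000100 (0.941 over 18 and 0.969 over 15). That gene stood at 77.8 to 79.1 FPKM in the control and at 29.6 to 58.0 FPKM under LN, a smaller step than that of MYB59.

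The other 9 of the top 10 over 18 libraries had r between 0.958 and 0.979, and between 0.663 and 0.860 over the LN libraries. They were Potri.012G024700, Potri.014G117700 (annotated as the iron-sulfur cluster protein NifU-like 1), Potri.018G006000, Potri.001G088400, Potri.006G133500 (glutathione S-transferase L3), Potri.010G163800, Potri.002G020500, Potri.012G028300 and Potri.004G000600. The 7 others carry no name in the tables used here. Potri.012G024700 went from 62.5 to 63.3 FPKM in the control to between 5.46 and 18.3 FPKM under LN. The NifU-like gene had a smaller step, from 40.0 to 43.6 FPKM to between 20.8 and 27.9 FPKM. A high r over 18 libraries thus says mainly that genes shared the step between control and LN, not that they fell as much. Over the 12 LN libraries without 48 h, r among these 9 genes ran from 0.383 (Potri.012G028300) to 0.857 (Potri.018G006000).

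The 5 genes with the lowest r over 18 libraries were Potri.008G174900, annotated as the glutathione transferase GST 23 (−0.981), Potri.001G463400 (−0.979), Potri.011G158100 (−0.974), Potri.002G187400 (−0.971) and Potri.001G352400 (−0.967). The GST 23 gene stood at 62.8, 60.3 and 58.3 FPKM in the control and at 116 to 196 FPKM under LN. Its extremes among LN libraries were both at 48 h, with 186 and 196 FPKM in replicates 1 and 2 and 116 FPKM in replicate 3, the reverse of MYB59. Potri.011G158100 went from 0.658 to 0.920 FPKM in the control to 7.72 to 44.8 FPKM under LN.

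Over the 15 LN libraries alone, the 5 closest genes were Potri.017G000100 (0.969), Potri.017G007400 (0.954), Potri.004G047300 (0.953), Potri.008G006300 (0.952) and Potri.003G218400 (0.952). They carry no name in the tables used here. Over the 12 LN libraries without 48 h their r lay between 0.894 and 0.935. For some of them the control lay inside the LN range. Potri.004G047300 stood at 18.7 to 19.9 FPKM in the control, inside its LN range of 12.1 to 23.2 FPKM, and its r over 18 libraries was 0.525. Potri.003G218400, at 15.7 to 20.9 FPKM in the control, ran from 6.15 FPKM at 336 h to 35.2 FPKM in replicate 3 of 48 h (r = 0.390 over 18 libraries).

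**Figure D5:**
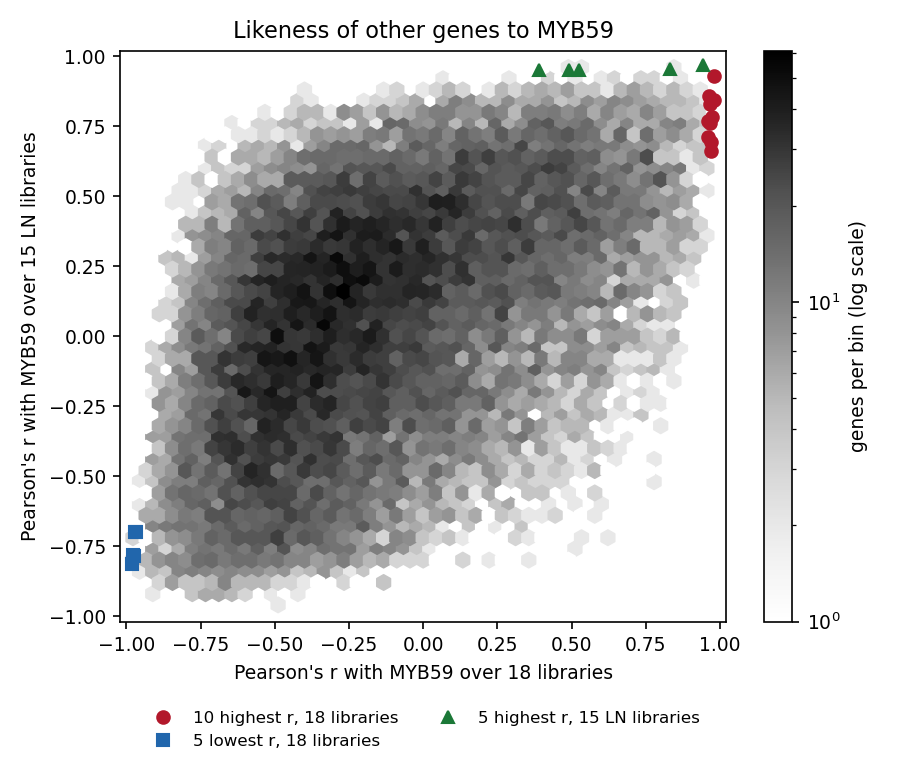
Pearson's r with MYB59 of 24472 other genes on log2(FPKM + 1), over all 18 libraries (x axis) and over the 15 LN libraries (y axis). Shading gives genes per bin on a log scale, and coloured symbols mark the highest and lowest genes. The 10 genes with the highest r over 18 libraries have r between 0.663 and 0.931 over the LN libraries.

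An r of at least 0.9 over 18 libraries and of at least 0.7 over the 15 LN libraries was reached by 30 genes, and 8 of these carry a name in the tables. Besides NifU-like 1, glutathione S-transferase L3, SBP6 and ORG2, they were both genes annotated as TGA1, the aquaporin NIP1-2 (Potri.004G063000) and a probable boron transporter 2 (Potri.015G077600), and they are named here after their values were seen. TGA1 is a bZIP factor that takes part in nitrate responses of Arabidopsis roots. The TGA1 gene Potri.005G082000 stood at 84.4, 75.4 and 80.1 FPKM in the control and at 28.6 to 56.3 FPKM under LN (r = 0.942 over 18 and 0.899 over 15 libraries). The other, Potri.007G085700, stood at 109 to 113 FPKM in the control and at 35.7 to 79.0 FPKM under LN (0.915 and 0.774). Without the 48 h libraries, r over the 12 LN libraries left was 0.81 for Potri.005G082000, 0.30 for Potri.007G085700, 0.56 for the boron transporter gene (Potri.015G077600) and 0.90 for NIP1-2 (Potri.004G063000). Both TGA1 genes had their LN maximum in replicate 3 of 48 h, as MYB59 had. The boron transporter gene went from 90.2 to 93.0 FPKM to between 31.5 and 60.8 FPKM.

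Position on the chromosome was compared last, through the 5 gene IDs on each side of MYB59. Of these 10 genes, 9 could be tested, and at 12, 24, 48, 96 and 336 h their log2 fold changes had medians of 0.16, 0.26, 0.01, 0.23 and 0.29, beside 0.15, 0.08, 0.04, 0.13 and 0.21 over all genes. The lowest value among them was −0.67, at 48 h. Without replicate 3, the 8 neighbours tested at 48 h had a median of −0.32 and a lowest value of −1.08 (Potri.010G064300), beside a median of −0.02 over all genes. The next ID, Potri.010G064100, stood at 20.7 to 22.6 FPKM in the control and at 17.9 to 32.2 FPKM under LN, a range that holds its control values. The 1 neighbour called with all libraries kept went up. AMT1;1 (Potri.010G063500), named after a high-affinity ammonium transporter of Arabidopsis roots, stood at 27.7, 29.4 and 27.6 FPKM in the control, at 106, 100.5 and 103 FPKM at 96 h and at 74.5, 64.8 and 84.8 FPKM at 336 h. It was called higher at 96 h (log2 fold change 1.83, SE 0.0545, adjusted p = 1.5e-07 in limma) and at 336 h (1.37, SE 0.10, adjusted p = 1.1e-05 in limma), where 8.18% and 8.28% of all genes were called higher. At 48 h without replicate 3, Potri.010G064300 was called lower and AMT1;1 higher, beside 4.38% and 7.72% of all genes.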

How the data were processed

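According to the study's methods and the labels, RNA was isolated with CTAB, sequenced as paired-end Illumina libraries and mapped by the authors to the P. trichocarpa genome. The methods name Bowtie2 and TopHat2, the submitters' processing notes Bowtie2 2.2.3 and HISAT2 2.1.0. The genome version and the counting tool are not given in the sources used here, and near-identical gene copies may share reads. The deposited values are FPKM as the authors computed them. They are whole multiples of 1 fragment within 0.001 for all 30485 genes, from which fragments, gene lengths (99.77% whole within 0.01 bp, MYB59 1178 bp) and library totals were recovered. Group comparisons used limma 3.58.1 (R 4.3.3) on log2(FPKM + 1) over the 6 libraries compared, for genes that reached 1 FPKM in 3 or more of them, with Benjamini-Hochberg adjustment. Since the deposited unit is FPKM, limma on log values was used in place of the authors' DESeq2, with the same limits for a call. The fitting was tested on simulated data. Python 3.11.15, numpy 2.4.6, pandas 2.3.3, scipy 1.17.1 and matplotlib 3.10.9 were used.

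MYB59 and the lists were chosen with earlier results of these data known. Genes named were MYB59, the MYB48-annotated gene, the NPF7.3 genes, AKT1, TPC1, the 5 MYB genes each with the largest mean fall and rise, the study's lowered factors, the 10 neighbouring IDs, the 10 highest and 5 lowest r over 18 libraries and the 5 highest over the LN libraries. Protein sequences, relatives by identity, further lists by product name (potassium transporters, cyclins, Casparian strip and green tissue genes) and coordinates were not analysed here. Alternatives were a pseudocount of 0.1, no filter, quantile normalization, 1 fit of all 18 libraries, a block for the replicate number, limma-voom on the recovered fragments (at least 10 in at least 3 libraries), leaving out each replicate, and for the likeness Spearman's rho, a filter at 5 FPKM and the omission of 48 h. Labels call the replicates biological.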

Additional observations from a re-analysis of the deposited data

How the results depend on the processing

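The difference of MYB59 from the control kept its sign under the alternatives run. A pseudocount of 0.1 gave −3.15, −3.18, −2.89 and −3.81 at 12, 24, 96 and 336 h, limma-voom on fragments −3.17, −3.20, −2.90 and −3.85, and quantile normalization −3.04 at 12 h. Leaving out 1 library gave −2.97 to −2.93 at 12 h, −3.04 to −2.92 at 24 h, −3.82 to −3.12 at 48 h, −2.77 to −2.64 at 96 h and −3.60 to −3.36 at 336 h.

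Between LN time points, the call at 96 h against 12 h was lost under quantile normalization (0.18, adjusted p = 0.075), limma-voom (0.27, 0.07) and 1 limma fit of all 18 libraries (0.23, 0.490). That fit, in which 48 h adds to a shared spread, also lost 336 h against 12 h (−0.53, 0.103) and against 24 h (−0.51, 0.128). The small difference between 24 and 12 h turned to 0.03 under quantile normalization and to 0.04 without replicate 3 of 24 h, and that between 336 and 48 h to 0.34 without replicate 3 of 48 h and to 0.00 without replicate 1 of 336 h. Leaving out 1 library gave −0.09 to 0.04 for 24 against 12 h, −0.87 to −0.17 for 48 against 12 h, 0.18 to 0.31 for 96 against 12 h (adjusted p = 0.0045 to 0.095 in limma), −0.85 to −0.15 for 48 against 24 h, 0.19 to 0.33 for 96 against 24 h, 0.40 to 1.1 for 96 against 48 h and −0.36 to 0.34 for 336 against 48 h. For 336 against 96 h it gave −0.88 to −0.64 (adjusted p = 0.00099 to 0.0094 in limma).

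With the replicate block, 96 h against 24 h passed the threshold (0.25, adjusted p = 0.023 in limma) and 5 other MYB genes were called higher at 48 h. The libraries share only a number (same-numbered libraries deviated from their group means with correlations of −0.13 to 0.10), and no other result for MYB59 or the lists changed its side of the threshold or moved by over 1.5 times under the block.

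For the other MYB genes, a pseudocount of 0.1 called 33 higher at 12 h and 9 lower at 24 h. Limma-voom called 38, 22, 43 and 45 higher at 12, 24, 96 and 336 h, 10 lower at 24 h and 7 lower at 336 h. Quantile normalization called 17 higher at 96 h, and the fit of all 18 libraries 18 higher at 48 h. Leaving out 1 library gave 13 to 23 higher at 12 h, 9 to 14 at 24 h, 3 to 15 at 48 h, 17 to 27 at 96 h and 16 to 28 at 336 h, and 6 to 13 lower at 48 h and 2 to 4 at 336 h. For the other lowered factors it gave 1 to 8 lower at 48 h, and for the neighbours 0 to 1 lower and 0 to 1 higher at 48 h.

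Over all genes, limma-voom called 2628 higher at 12 h against 1428 in the limma fit on FPKM, 1032 against 602 lower at 12 h, 1878 against 977 higher at 24 h, 540 against 321 lower at 24 h, 3793 against 1912 higher at 96 h and 3580 against 1931 higher at 336 h. A pseudocount of 0.1 called 1475 higher at 24 h and 2976 at 96 h, quantile normalization 1265 at 96 h, and the fit of all 18 libraries 1311 higher at 48 h against 647. Without replicate 3 of 48 h, 1714 were higher and 973 lower at 48 h, against 647 and 487.

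Of the 10 genes most like MYB59 over 18 libraries, 1 stayed among the top 10 by Spearman's rho and 4 without the 48 h libraries. The cause of these changes was not tested. With 50 to 154 fragments in a LN library, small differences between LN time points are near the limit of counting error.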
